A study of Mus musculus with 2 samples.

Results

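The 10 genes described here handle iron in animal cells: the ferritin chains Ftl1 and Fth1, the ferritin receptor Ncoa4, the importers Tfrc and Slc11a2, the exporter Slc40a1, the regulators Aco1 and Ireb2, the haem-degrading enzyme Hmox1 and the lipocalin Lcn2. They were chosen by symbol, not by a measured value, though with earlier results of these data known. All 10 were found among the 43346 genes of the deposited tables. The study sequenced total RNA from kidneys of mouse embryos of strain B6NCrl at embryonic day 14.5, when the organ is still adding nephrons. It held 2 libraries, called replicates 1 and 2, with no treatment, genotype or second tissue, so no gene could be tested between conditions. Per the labels, each library came from the 2 kidneys of 1 pup, collected on 15 July for replicate 1 and on 17 July for replicate 2. The labels also call each sample a mixture of both sexes. Each library started from 10 ng of RNA longer than 200 nt, with spike-in RNAs, and the labels link to a Smart-seq protocol. The libraries held 29718428 and 29204212 expected counts, that is, estimated reads.

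Cells take up transferrin-bound iron through the transferrin receptor, store iron inside ferritin shells of heavy and light chains, and release it through ferroportin. When iron is scarce, iron regulatory proteins bind hairpins called iron-responsive elements in the messages of these genes. A hairpin ahead of the coding sequence then blocks translation, while hairpins behind it protect the message from decay, so that ferritin falls and the receptor rises. In the kidney, ferroportin and the divalent metal transporter are known from tubule cells, and lipocalin 2 is best known as a marker of tubule injury. Because much of this control acts on translation, message levels alone do not give protein levels.

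The hairpins are shown first because they divide the genes by the way iron acts on their messages. The search asked for an unpaired C, 5 bases, the loop CAGTGN, and 5 bases able to pair with the first 5, G-U pairs allowed, on the message strand of GENCODE M21 transcripts (assembly GRCm38, the same as mm10). It found the hairpin in the 5′ untranslated regions (UTRs) of Ftl1, Fth1 and Slc40a1 and 4 times in the 3′ UTR of Tfrc. Each stretch is printed as DNA, 5′ to 3′, with the loop in capitals and 6 bases on either side of the match.
Ftl1-201, 5′ UTR: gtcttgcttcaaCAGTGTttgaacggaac
Fth1-201, 5′ UTR: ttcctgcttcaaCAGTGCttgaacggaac
Slc40a1-201, 5′ UTR: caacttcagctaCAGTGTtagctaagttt
Tfrc-201, 3′ UTR, hairpin 1: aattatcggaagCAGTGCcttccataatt
Tfrc-201, 3′ UTR, hairpin 2: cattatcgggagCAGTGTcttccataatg
Tfrc-201, 3′ UTR, hairpin 3: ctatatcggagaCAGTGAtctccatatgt
Tfrc-201, 3′ UTR, hairpin 4: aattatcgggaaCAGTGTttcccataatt
Slc11a2-205, 3′ UTR: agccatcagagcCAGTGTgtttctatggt

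The Ftl1 stretch lies in exon 1 at chr7:45459779-45459807, minus strand, and its match begins at nt 84 of a 253-nt 5′ UTR. That of Fth1 lies in exon 1 at chr19:9982732-9982760, plus strand, and begins at nt 93 of a 224-nt 5′ UTR. The Slc40a1 stretch lies in exon 1 at chr1:45925465-45925493, minus strand, and begins at nt 96 of a 319-nt 5′ UTR. The 4 stretches of Tfrc lie in exon 19, plus strand, at chr16:32631219-32631247, chr16:32631598-32631626, chr16:32631663-32631691 and chr16:32631710-32631738, in a 3′ UTR of 2458 nt.

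The rule found a match in 31 of 20492 genes with a 5′ UTR (0.151%) and in 129 of 20937 genes with a 3′ UTR (0.616%). With Watson-Crick pairs only, the same 4 of the 10 genes matched, among 12 genes (0.0586%) for 5′ UTRs and 18 genes (0.0860%) for 3′ UTRs. The Slc11a2 stretch, in exon 16 at chr15:100395153-100395181, minus strand, has 4 of the 5 pairs, of which 2 are Watson-Crick pairs. It was reached only by a rule relaxed to 4 pairs, chosen after the data were seen. That rule matched 205 genes (1.00%) for 5′ UTRs and 872 genes (4.16%) for 3′ UTRs. Aco1, Ireb2, Ncoa4, Hmox1 and Lcn2 held no hairpin match under any of these rules. A match is a run of letters able to fold, and no binding was measured.

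**Figure D1:**
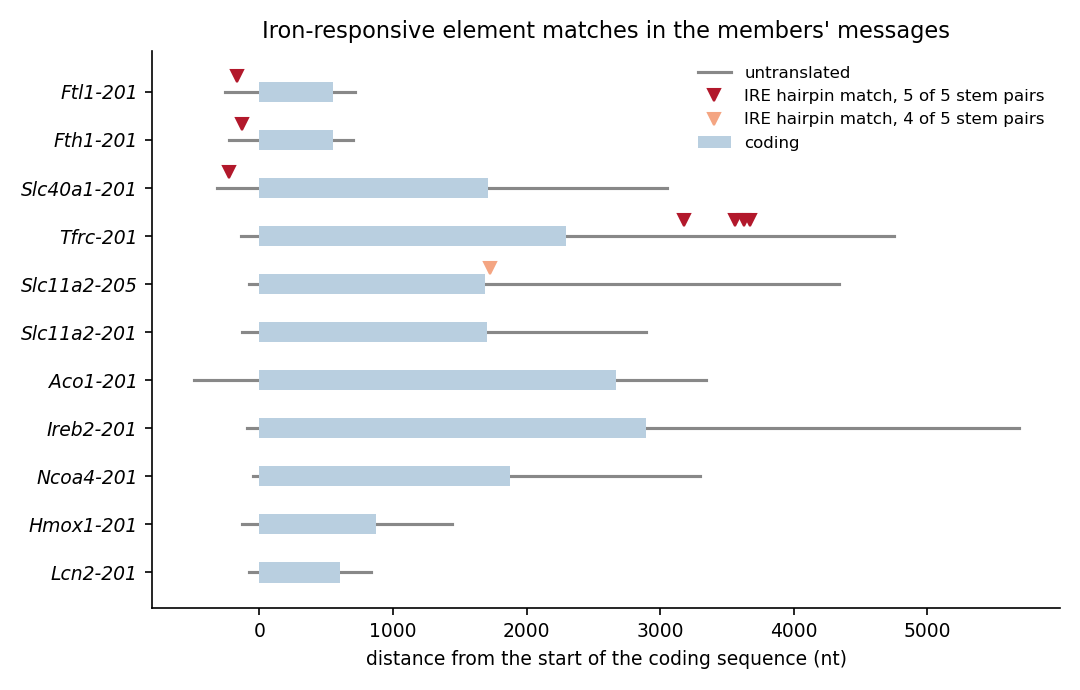
The leading messages of the 10 genes, with both leading forms of Slc11a2, are drawn to scale in nt from the start of the coding sequence, with thin lines for untranslated and boxes for coding sequence. Triangles mark hairpin matches, which lie before the box in Ftl1, Fth1 and Slc40a1 and behind it in Tfrc (4 matches) and Slc11a2-205 (1 match with 4 of 5 pairs).

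The ferritin chains had by far the highest levels of the 10 genes. Together they held 4327 and 4394 TPM (the abundance of a message corrected for its length and scaled to a fixed sum in each library) in replicates 1 and 2. This was 0.482% ± 0.00518 (SD, n = 2) of the TPM of all genes, and 92.9% and 95.7% of the summed TPM of the 10 genes. The other 8 genes summed to 331 and 195 TPM, so the ferritin messages outnumbered them 13.1-fold in replicate 1 and 22.5-fold in replicate 2.

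Ftl1 (ENSMUSG00000050708.10, chr7:45457944-45459884, minus strand) encodes the light chain, which promotes the forming of the iron core. It stood at 3107 TPM in replicate 1 and 3269 TPM in replicate 2, from 52450 and 63652 expected counts. It ranked 11 by mean TPM among the 21474 protein-coding genes. The ratio of TPM, replicate 1 over replicate 2, was 0.950, with a 95% counting interval of 0.939 to 0.961. Both deposited levels lay above their own credibility intervals, 2991 to 3045 TPM and 3163 to 3215 TPM, which belong to posterior mean levels of 3018 and 3189 TPM.

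Fth1 (ENSMUSG00000024661.6, chr19:9980598-9985098, plus strand) encodes the heavy chain, the ferroxidase that oxidises iron as it enters the shell. It stood at 1221 and 1125 TPM in replicates 1 and 2, from 18269 and 19427 expected counts, and ranked 73 by mean TPM. Both Fth1 levels also lay above their own credibility intervals, 1168 to 1203 TPM and 1082 to 1112 TPM. Its TPM ratio between libraries was 1.09, with a counting interval of 1.06 to 1.11. On scales that centre most genes, described further on, Fth1 was lower in replicate 1 instead. The Fth1 message was at 0.393 and 0.344 of the Ftl1 level per length, a mean of 0.368 ± 0.0345 (SD, n = 2), so light chain messages exceeded heavy chain messages 2.55-fold and 2.91-fold.

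Both ferritin genes have copies in the genome, and reads that fit more than 1 of them are shared out by estimation. The Ftl1 copies found were 81.2% to 99.56% identical to Ftl1, and the 3 of Fth1 were 80.5% to 90.5% identical to Fth1. The deposited posterior SD of the count was 45.9 and 52.7 reads for Ftl1 in replicates 1 and 2, and 0.82 and 0.89 reads for Fth1. Of 19 annotated Ftl1 copies found by alignment (80% identity over at least 300 nt), 13 were in the tables and 8 had counts. Their levels summed to 41.9 and 44.4 TPM, or 1.33% and 1.34% of gene and copies together. Nearly all of this was Ftl1-ps1, which is 99.56% identical to the Ftl1 message over 910 nt and stood at 37.4 and 40.1 TPM. How the reads divide between Ftl1 and Ftl1-ps1 is uncertain. Gm15590, another Ftl1 copy, stood at 2.41 and 3.31 TPM. The 2 measured Fth1 copies, Gm6977 at 1.75 and 2.00 TPM and Fth-ps2 at 2.09 and 0.85 TPM, held 0.314% and 0.253% of gene and copies.

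Ncoa4 (ENSMUSG00000056234.10, chr14:32159865-32179855, plus strand) encodes the receptor that carries ferritin to autophagosomes, which frees the stored iron. It stood at 78.6 and 53.3 TPM in replicates 1 and 2, with credibility intervals of 74.6 to 80.8 TPM and 50.5 to 55.4 TPM that did not overlap. The summed ferritin level was 55.0-fold that of Ncoa4 in replicate 1 and 82.5-fold in replicate 2. Its leading transcript, Ncoa4-201, held 82.2% and 84.8% of the gene's TPM, and Ncoa4-202, with a longer 3′ UTR, held 13.0% and 10.2%. The Ncoa4 counts were not whole, and the deposited posterior SD of the count was 39.0 and 23.8 reads.

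**Figure D2:**
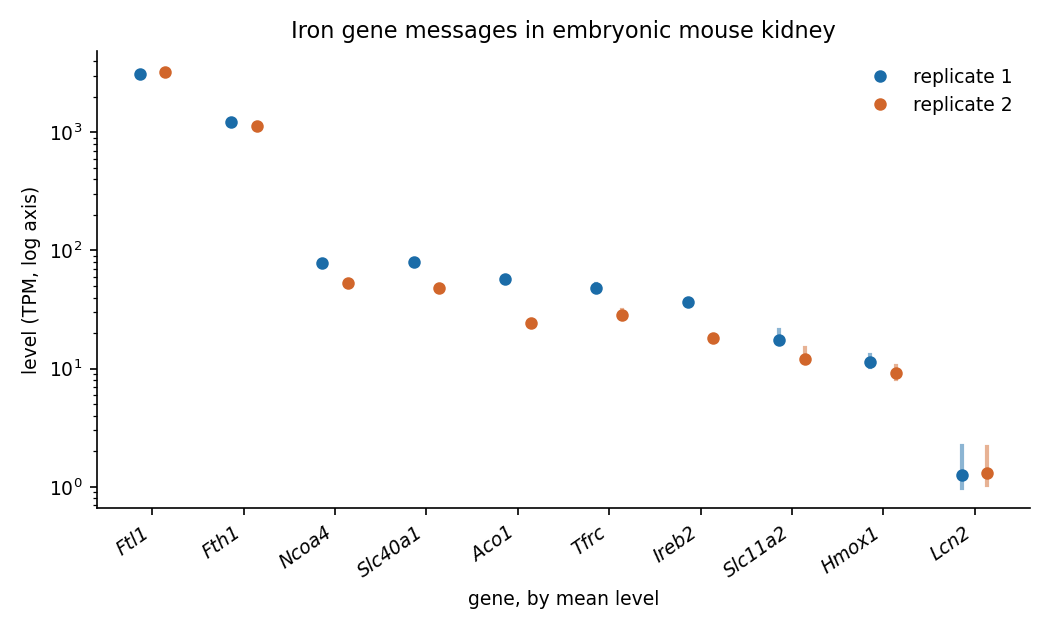
Level of each of the 10 genes in replicate 1 (blue) and replicate 2 (orange), in TPM on a log axis, ordered by mean; bars are the deposited credibility intervals. The ferritin chains lie above 1000 TPM, 7 genes lie between 5 and 100 TPM, and Lcn2 lies near 1 TPM.

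Uptake genes stood far below storage genes. Tfrc (ENSMUSG00000022797.11, chr16:32608920-32632794, plus strand) encodes transferrin receptor 1, which brings transferrin-bound iron into the cell. It stood at 48.4 TPM in replicate 1 and 28.6 TPM in replicate 2, from 3863 and 2458 reads. The TPM ratio was 1.70, with a counting interval of 1.61 to 1.78, so the difference exceeded counting error.

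The form of the Tfrc message also differed between libraries. Tfrc-201, the 4890-nt coding transcript, held 36.95 and 15.5 TPM, or 76.3% and 54.4% of the gene's TPM. Tfrc-204, a 3527-nt transcript annotated with a retained intron, held 4.56 and 9.65 TPM, or 9.43% and 33.8%. Its credibility intervals, 2.59 to 6.65 TPM and 8.14 to 11.1 TPM, did not overlap. Coding Tfrc transcripts summed to 40.5 TPM in replicate 1 and 16.4 TPM in replicate 2, a larger difference than that of the whole gene. Tfrc-204 covers the 3′ end of the gene, with all 4 hairpins printed above, so transcripts with the hairpins held similar shares, 85.7% and 88.2% of the TPM. Unspliced RNA is counted in total RNA, and its part in the retained-intron level was not tested.

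Slc11a2 (ENSMUSG00000023030.12, chr15:100387898-100425072, minus strand) encodes the divalent metal transporter that moves iron across the apical and the endosomal membrane. It stood at 17.6 and 12.0 TPM in replicates 1 and 2, from 1130 and 831 reads, with a TPM ratio of 1.47 and a counting interval of 1.34 to 1.61. The gene makes messages with alternative 3′ ends, and the form with the iron-responsive element is known to respond to iron. Slc11a2-205, the 4415-nt form whose stretch is printed above, stood at 6.85 and 4.80 TPM. Slc11a2-201, the 3025-nt form with no hairpin match, stood at 9.50 and 5.23 TPM. The hairpin form thus held 41.9% and 47.9% of the level of both, a mean of 44.9% ± 4.21 (SD, n = 2). Both 3′ ends were present in embryonic kidney. The credibility intervals of Slc11a2-201 and Slc11a2-205 did not overlap in replicate 1 (8.17 to 10.1 and 5.96 to 7.25 TPM). In replicate 2 they overlapped (4.38 to 5.71 and 4.18 to 5.16 TPM).

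**Figure D3:**
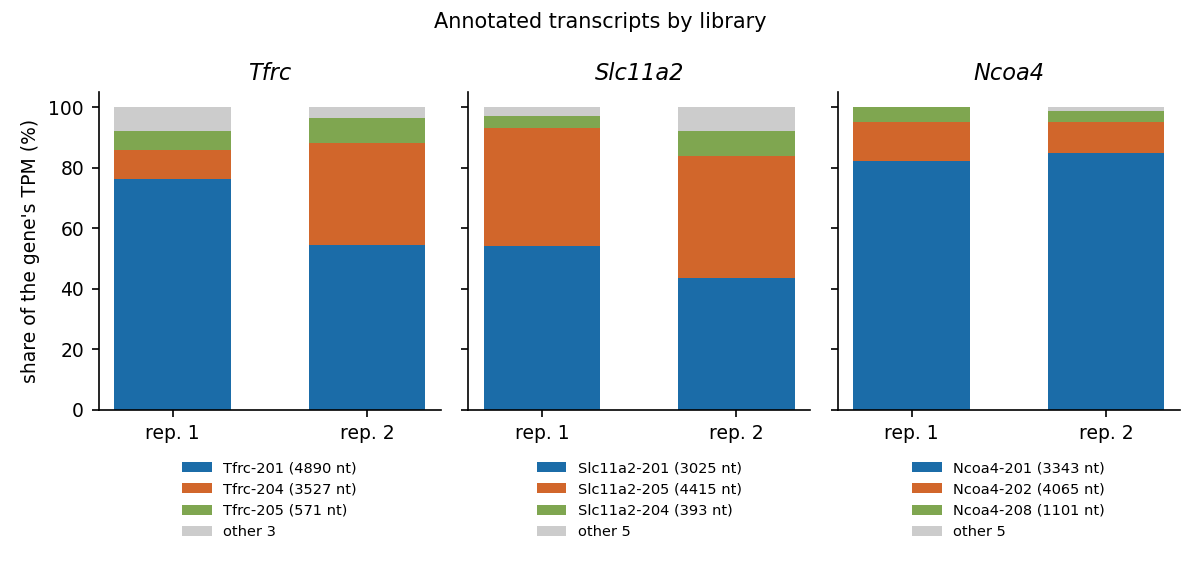
Share of each gene's TPM, in percent, held by annotated transcripts of Tfrc, Slc11a2 and Ncoa4 in replicates 1 and 2; stacked bars add to 100 percent and transcript lengths are in the legends. The Tfrc-204 part of the bar is larger in replicate 2 (33.8%) than in replicate 1 (9.43%), while the Slc11a2-205 part is alike (39.0% and 40.1%).

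Within each library the exporter message stood above those of the importers. Slc40a1 (ENSMUSG00000025993.6, chr1:45908068-45926523, minus strand) encodes ferroportin, the exporter of iron from animal cells. It stood at 79.2 TPM in replicate 1 and 48.4 TPM in replicate 2, from 4953 and 3511 reads, with a TPM ratio of 1.64 and a counting interval of 1.57 to 1.71. Although both genes differed between libraries, Slc40a1 stood 1.64-fold and 1.70-fold above Tfrc within them, a mean ratio of 1.67 ± 0.0422 (SD, n = 2). Slc40a1-201, the transcript with the 5′ hairpin, held 95.7% and 95.4% of the gene's TPM.

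Both regulators were present. Aco1 (ENSMUSG00000028405.9, chr4:40143081-40198338, plus strand) encodes iron regulatory protein 1, which is the cytosolic aconitase when it carries an iron-sulfur cluster and binds RNA when it does not. Aco1 stood at 57.4 TPM in replicate 1 and 24.5 TPM in replicate 2, from 3989 and 2047 reads. Its TPM ratio of 2.35, with a counting interval of 2.22 to 2.48, was the largest of the 10 genes. Ireb2 (ENSMUSG00000032293.7, chr9:54863789-54912530, plus strand) encodes iron regulatory protein 2, which is degraded when iron is plentiful. It stood at 36.7 and 18.2 TPM, from 4093 and 2341 reads, with a TPM ratio of 2.02 and a counting interval of 1.92 to 2.12. Within each library Aco1 stood above Ireb2, 1.56-fold in replicate 1 and 1.34-fold in replicate 2, though the levels of Aco1 in replicate 2 and Ireb2 in replicate 1 crossed.

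Hmox1 (ENSMUSG00000005413.7, chr8:75093621-75100589, plus strand) encodes the inducible haem oxygenase, which releases iron from haem. It stood at 11.5 and 9.19 TPM in replicates 1 and 2, from 338 and 310 reads. The counting interval of the ratio, 1.07 to 1.46 around 1.25, lay above 1, while the deposited credibility intervals, 10.3 to 13.0 TPM and 8.21 to 10.4 TPM, overlapped. Hmox2, the constitutive haem oxygenase, was 6.98-fold and 9.08-fold higher than Hmox1 per length within replicates 1 and 2.

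Lcn2 (ENSMUSG00000026822.10, chr2:32384633-32388252, minus strand) encodes lipocalin 2, a secreted protein that binds iron-carrying siderophores. In the rat it has been described as an inducer of epithelium in kidney mesenchyme. Lcn2 was the lowest of the 10 genes, at 1.26 and 1.31 TPM in replicates 1 and 2, from only 20 and 24 reads. At this depth a difference between libraries from 0.504-fold to 1.82-fold lies within counting error. Slc22a17, which encodes a reported receptor for lipocalin 2, stood 20.2-fold and 27.3-fold above Lcn2.

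In order of mean TPM the genes ran Ftl1, Fth1, Ncoa4, Slc40a1, Aco1, Tfrc, Ireb2, Slc11a2, Hmox1 and Lcn2. The libraries of neighbours did not overlap between Ftl1 and Fth1, between Fth1 and Ncoa4 (15.5-fold and 21.1-fold), and for the steps from Ireb2 down to Slc11a2, Hmox1 and Lcn2. From Ncoa4 to Ireb2 each gene's range overlapped that of its neighbour. Ncoa4 and Slc40a1 changed places between libraries, as did Aco1 and Tfrc. In both libraries Ncoa4 and Slc40a1 lay above Aco1 and Tfrc, which lay above Ireb2. In bulk tissue, fewer cells of a type and less RNA per cell cannot be told apart.

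The deposited credibility intervals of the libraries overlapped for 2 of the 10 genes, Hmox1 and Lcn2. Overlap was not counted over all genes, so this count does not set the 10 genes off from others. For 7 of the 10, all but Ftl1, Fth1 and Ncoa4, the expected counts were whole in both libraries (within 0.005), as they are when no read is divided between genes. A gene was called apart when log2((TPM + 1) ratio, replicate 1 over replicate 2) was at least 1 in size and the higher library had at least 5 TPM. Aco1 alone of the 10 genes was apart, at 1.20. Of 11480 genes at 5 TPM or more in either library, 638 were apart in either direction (5.56%), 523 with replicate 1 higher (4.56%) and 115 with replicate 2 higher (1.00%). The count of 1 in 10 is too small to set the genes off from that background. With a pseudocount of 0.1 in place of 1, Aco1 and Ireb2 were apart, against 7.59% of all genes, and on the TMM scale of counts none of the 10 was, against 2.09%. On the TPM scale 8 of the 10 were higher in replicate 1, against 74.7% of the 11480 genes, and their median log2 ratio was 0.54, against 0.29 for all of these. Fth1 turned lower in replicate 1 on the FPKM (-0.11), TMM (-0.20) and DESeq2 (-0.19) scales, which left 7 of 10 higher. The share of all genes higher in replicate 1 was not counted on these scales. The median log2 ratio of the 10 genes was 0.31, 0.29 and 0.29 on them, against 0.07, 0.01 and 0.01 for the 11480 genes. On the TMM scale Ftl1 stood at -0.39, as far from 0 as Slc40a1 at 0.38 and farther than Slc11a2 at 0.32 and Ncoa4 at 0.25.

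On the TPM scale message length moved with these ratios, and its part in them was not tested. Over all genes the median log2 ratio was -0.31 under 500 nt of effective length, a class that holds none of the 10 genes and in which 9.39% were past 2-fold with replicate 1 higher, against 7.94% at 3000 to 4000 nt. It was -0.13 at effective lengths of 500 to 1000 nt, where Ftl1 and Fth1 lie, and 0.13 at 1000 to 2000 nt, where Hmox1 lies. It was 0.56 at 3000 to 4000 nt, which holds Tfrc, Slc40a1, Slc11a2, Aco1 and Ncoa4, and 0.62 at 4000 to 6000 nt, which holds Ireb2. Ncoa4 and Slc11a2 stood near the middle of their class, at percentiles 48.5 and 44.2. Slc40a1, Tfrc and Ireb2 stood at percentiles 66.3, 72.0 and 85.4. Aco1 stood at percentile 97.9, with a log2 ratio 0.63 above its class median. Fth1 stood at percentile 84.1, Hmox1 at 73.8 and Ftl1 at 61.2, while Lcn2 was below the 5 TPM needed.

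**Figure D4:**
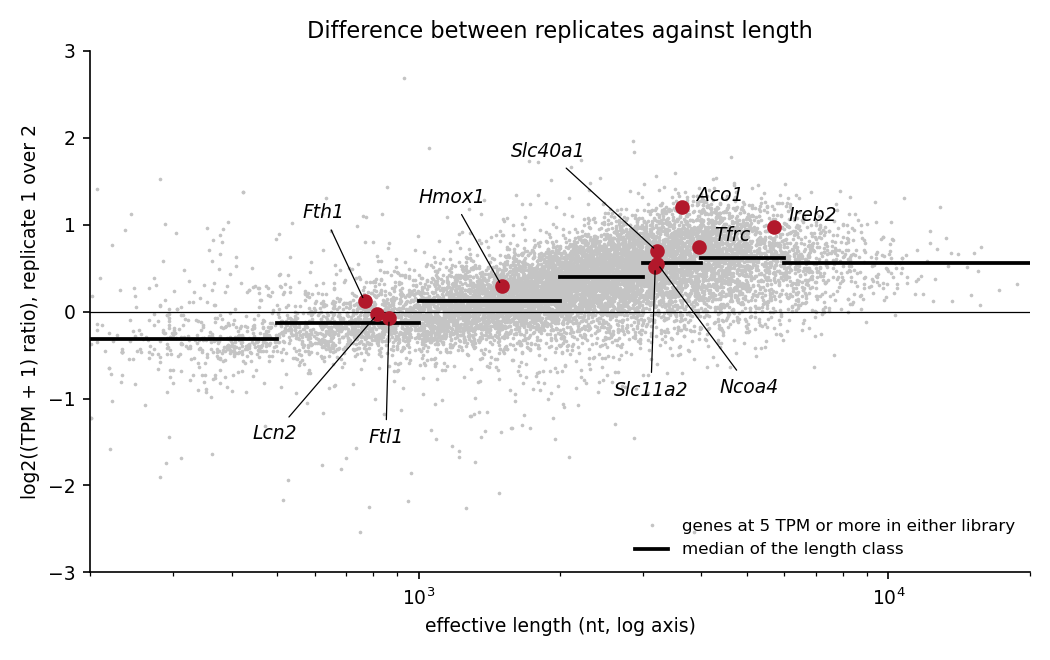
Each grey point is a gene at 5 TPM or more in either library, placed by effective length (nt, log axis) and by log2((TPM + 1) ratio, replicate 1 over replicate 2); black bars are medians of length classes, and 222 of 11480 genes lie outside the axes. The 10 genes (red) run from Ftl1 at -0.07 to Aco1 at 1.20, the farthest above its class median.

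Further genes of iron and haem handling were taken from 9 lists, chosen with earlier results of these data known. Of 102 matched genes, 72 reached 1 TPM in both libraries (70.6%), against 59.0% of all protein-coding genes. Of the 67 at 5 TPM or more, 3 were apart (4.48%), namely Lrp2, Heph and Bach1, all higher in replicate 1, a share near the 5.56% of all genes. The median log2 ratio of the 67 genes was 0.36, against 0.29 for all genes at that level.

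Among other uptake and reduction genes, 9 of 15 were detected. Slc22a17 led at 30.6 ± 7.30 TPM, followed by the lysosomal iron channel Mcoln1 at 27.9 ± 6.10, the metalloreductase Steap2 at 15.0 ± 4.78 and transferrin (Trf) at 12.2 ± 3.10 TPM (SD, n = 2 each). Tfr2, the receptor best known from liver and erythroid cells, stood at 0.180 TPM. Storage and turnover genes stood higher, with 6 of 7 detected. The iron chaperones Pcbp1 and Pcbp2, which deliver iron to ferritin, stood at 371 ± 22.1 and 100.3 ± 12.6 TPM. Fbxl5, the iron-sensing ligase subunit that targets Ireb2, stood at 45.8 ± 16.4 TPM.

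Of the genes for export and systemic control, 6 of 12 were detected, led by Neo1 at 20.1 ± 6.97 TPM and the ferroxidase Heph at 13.7 ± 7.86 TPM. Cp, the plasma ferroxidase ceruloplasmin, stood at 0.225 ± 0.205 TPM. Hamp, which encodes the liver hormone hepcidin that removes ferroportin from the membrane, had 0 counts in both libraries. A count of 0 allows up to 0.525 and 0.455 TPM in replicates 1 and 2.

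In haem handling 9 of 11 genes were detected, led by Hmox2 at 81.8 ± 2.30 TPM. The haem exporter Abcg2 stood at 49.3 ± 5.59 TPM, and the biliverdin reductases Blvra and Blvrb at 31.8 ± 0.877 and 30.5 ± 1.28 TPM. All 9 genes of haem synthesis were detected, with Alad at 82.6 ± 2.09 TPM and Urod at 72.1 ± 11.3 TPM among the higher ones. The first step of that pathway has a ubiquitous enzyme, Alas1, at 41.3 ± 8.56 TPM, and an erythroid enzyme, Alas2, at 26.3 and 15.7 TPM in replicates 1 and 2. All 15 genes of mitochondrial iron and iron-sulfur clusters were detected, led by the chaperone Hspa9 at 169 ± 70.2 TPM and the cluster carrier Glrx5 at 164 ± 20.4 TPM. Their median of 85.4 TPM was the highest of the 9 lists.

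All 6 other genes known for an iron-responsive element were detected, with App highest at 131 ± 43.3 TPM. Alas2 also matched the 5′ UTR hairpin rule. Of genes on the NRF2 and BACH1 axis, which induces Hmox1 and ferritin under oxidative stress, 11 of 12 were detected, from Prdx1 at 1301 ± 203 TPM to Srxn1 at 5.46 TPM, with Slc7a11 at 0.310 TPM not detected. The lipocalin family was mostly below 1 TPM: 3 of 17 matched genes were detected besides Lcn2, and 7 had 0 counts. Apom, the apolipoprotein M gene, led them at 7.74 ± 0.636 TPM.

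**Figure D5:**
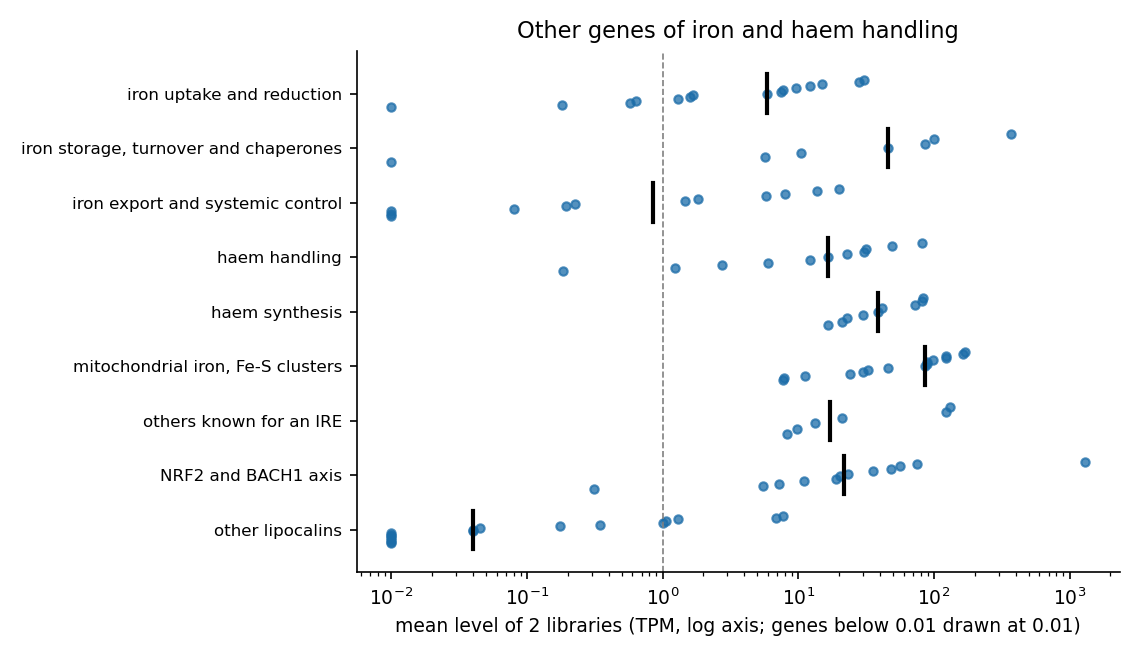
Mean level of each listed gene over both libraries (TPM, log axis), 1 point a gene and 1 row a list, with the list median as a black bar and 1 TPM as a dashed line. Mitochondrial iron genes have the highest median (85.4 TPM) and other lipocalins the lowest (0.04 TPM).

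Markers of cell types that handle iron were measured beside these genes, and their part in the levels was not tested. Neutrophils are known to be rich in Lcn2. Of their 8 markers 1 was detected, S100a8 at 3.40 TPM, and the 8 summed to 5.94 and 4.33 TPM in replicates 1 and 2. Of 10 macrophage markers 8 were detected, led by C1qb at 29.2 TPM, with sums of 101 and 92.0 TPM, while Cd163, a receptor of iron-recycling macrophages, stood at 0.09 TPM and Vsig4 had 0 counts. Of 10 erythroid markers 4 were detected, led by Epor at 6.66 TPM, with sums of 15.7 and 16.4 TPM. That list left out the haemoglobin genes and the erythroid enzyme Alas2, which stood at 26.3 and 15.7 TPM. Hepatocyte markers summed to 36.4 and 25.3 TPM with 5 of 8 detected. The ureteric and nephron progenitor lists of the kidney stood higher. They summed to 620 and 552 TPM and to 514 and 431 TPM, each with 8 of 8 detected. The proximal tubule list, with 5 of 8 detected, summed to 109 TPM in replicate 1 and 54.4 TPM in replicate 2, and 2 of its 5 genes at 5 TPM or more, Slc34a1 and Lrp2, were apart, against 5.56% of all genes at that level.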

How the data were processed

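Per the labels, total RNA of 2 embryonic kidney samples was sequenced. Per the file headers, the authors quantified reads per gene and transcript on mm10 with annotation M4; for the aligner, the quantifier and the use of strand, nothing is stated in the labels, and antisense pairs cannot be told apart. The deposited expected counts are estimated reads, with shared reads divided among features. The deposited TPM has the same sum in both libraries, counting spike-ins, and FPKM scales by effective length and depth. The deposited interval bounds, a signal on the TPM scale, describe 1 library at a level not given, and the deposited isoform percent is a transcript's share of its gene's TPM.

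Features named by a number only (26248) and 96 spike-ins were left out. Spike-ins took 4.34% and 4.95% of counts. Symbols, exons and UTRs came from GENCODE M21, which matched 42462 of 43346 gene IDs. Lengths of Fth1-201, Hmox1-201 and Ireb2-201 differ between the annotations. The members and lists were chosen with earlier results of these data known. All 10 members are named, and of each list genes were named by highest and lowest mean TPM; a few of these are not reported here. No test was possible in 1 group of 2 samples. Mean ± SD is over both libraries. Counting intervals are exact conditional binomial (95%), a count of 0 was taken to allow 3 counts, and both cover counting error only. Ferritin copies were found with blastn 2.17.0, TMM factors with edgeR 4.0.16 and size factors with DESeq2 1.42.0 (R 4.3.3), for which expected counts were rounded. Calculations used Python 3.11.15. Of these, only the rule for calling genes apart was tested on simulated data, which held no shift with message length. Alternatives were other floors, pseudocounts (0.1 and 5), scales, hairpin rules and leaving out each replicate.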

Additional observations from a re-analysis of the deposited data

How the results depend on the processing

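With 2 libraries, no p-value was available and no value could be checked beyond the range of both. No paired analysis was possible because there was only 1 group. Lcn2, with 20 and 24 reads, was limited by depth. The count of genes apart between libraries, 1 of 10 (Aco1), was 2 with a pseudocount of 0.1 (Aco1 and Ireb2), and 0 on the TMM and DESeq2 scales, where the log2 ratio of Aco1 was 0.85. The share of all genes past the same rule was then 7.59% with a pseudocount of 0.1 and 2.09% on the TMM scale. These scales moved the median log2 ratio of all genes to 0.01, against 0.29 on the TPM scale. The cause was not tested. The ferritin share of 0.482% became 0.512% when spike-in, mitochondrial and haemoglobin features were removed, 0.468% with posterior mean TPM and 0.274% of expected counts, which are not divided by length; leaving out either replicate gave 0.478% to 0.486%. The Fth1 to Ftl1 ratio of 0.368 became 0.327 in expected counts, and leaving out either replicate gave 0.344 to 0.393. Without the stem rule, the loop letters matched 9 of the 10 genes in either UTR in place of 4, and 34.3% and 69.4% of all genes for 5′ and 3′ UTRs. Counts of detected genes stayed within 1.5 times under every alternative run, and with posterior mean TPM each of the 10 genes still had 1 leading transcript shared by both libraries. The share of Lcn2-201 was then 65.2%, against 100%. The level of Lcn2 was 1.59 TPM as a posterior mean.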
